A study of Cricetulus griseus with 6 samples.

Results

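The genes described here build and run the DNA replication machinery: 48 listed genes of origin licensing, the replicative helicase, the polymerases and fork proteins, and the supply of deoxynucleotides. They are listed by symbol. A gene was measured where a transcript cluster of the array, the set of probes that is summarised as a single value, carried exactly 1 gene symbol from the list, and the cluster with the highest mean over the 6 arrays stood for the gene. On this rule 44 of the 48 genes were measured, among 14899 genes with such a cluster in the whole series. In all 44 the log2 signal averaged 6 or more, as it did in 9095 of all genes, and these 9095 are the background used below. Mcm7, Dbf4 and Rpa1 had no cluster under their symbol, and Mcm6 stood only in a cluster that also carried Lct, so these 4 genes have no value.

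The cells were of 2 Chinese hamster ovary lines. CHO-K1 is the parental line, and CHO-K6 is a single line made from CHO cells that stably overexpresses human HER2 and was kept under G418 selection, so HER2, the clone and the selection cannot be told apart between the lines. CHO-K1 cells were untreated or received trastuzumab and pertuzumab together, called the combination here. CHO-K6 cells were untreated or received trastuzumab, pertuzumab or the combination. Trastuzumab and pertuzumab are therapeutic antibodies that bind different sites on the outer part of HER2. Each antibody was given at 10 µg/mL for 24 h in fresh medium with serum, after a period in low serum that every group shared. Each of the 6 conditions has 1 array, with no array of an isotype control antibody among them, so no difference below can be set against a spread between replicates. No test was run and no p-value is given. Values are log2 signals, and a difference is the log2 signal of the first named array minus that of the second. The 2 CHO-K1 values of a gene are always given as untreated and combination, and the 4 CHO-K6 values as untreated, trastuzumab, pertuzumab and combination.

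Replication is prepared in G1 phase, when the origin recognition complex (ORC) together with Cdc6 and Cdt1 loads rings of the MCM2-7 helicase onto origins, while geminin holds Cdt1 back later in the cycle. In S phase the Cdc7 kinase, Cdc45 and the GINS complex turn these rings into active helicases. Polymerase alpha with primase then starts each new strand, polymerases delta and epsilon extend it on the PCNA clamp that replication factor C (RFC) loads, and Fen1 and DNA ligase 1 join the pieces of the lagging strand. Thymidine kinase, thymidylate synthase and ribonucleotide reductase supply the building blocks. Many of these genes are transcribed by E2F factors as cells leave G1, which makes them common markers of proliferation.

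The median log2 signal was 5.89 to 5.91 on every array. The paper calls the deposited values normalized, so near-equal medians cannot show whether an array stood apart. The labels call the cells epithelial. The epithelial markers Krt8, Krt18 and Epcam had mean log2 signals of 4.55, 4.62 and 4.42, and Cdh1 had 6.10. Among the measured fibroblast and mesenchymal markers, Vim had 13.25, Fn1 11.46, S100a4 8.71 and Col3a1 7.82. Col1a1 (5.955) and Cdh2 (5.21) of the same list were as dim as the epithelial markers or nearly so. The array's Erbb2 signal was 8.50 and 8.64 in CHO-K1 and 9.01, 8.80, 9.21 and 9.01 in CHO-K6. How far these hamster probes read the human HER2 transcript was not tested, so the difference is a limited check of the labels. In RNA from whole cultures, fewer cells in S phase and less RNA per cell cannot be told apart.

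**Figure D1:**
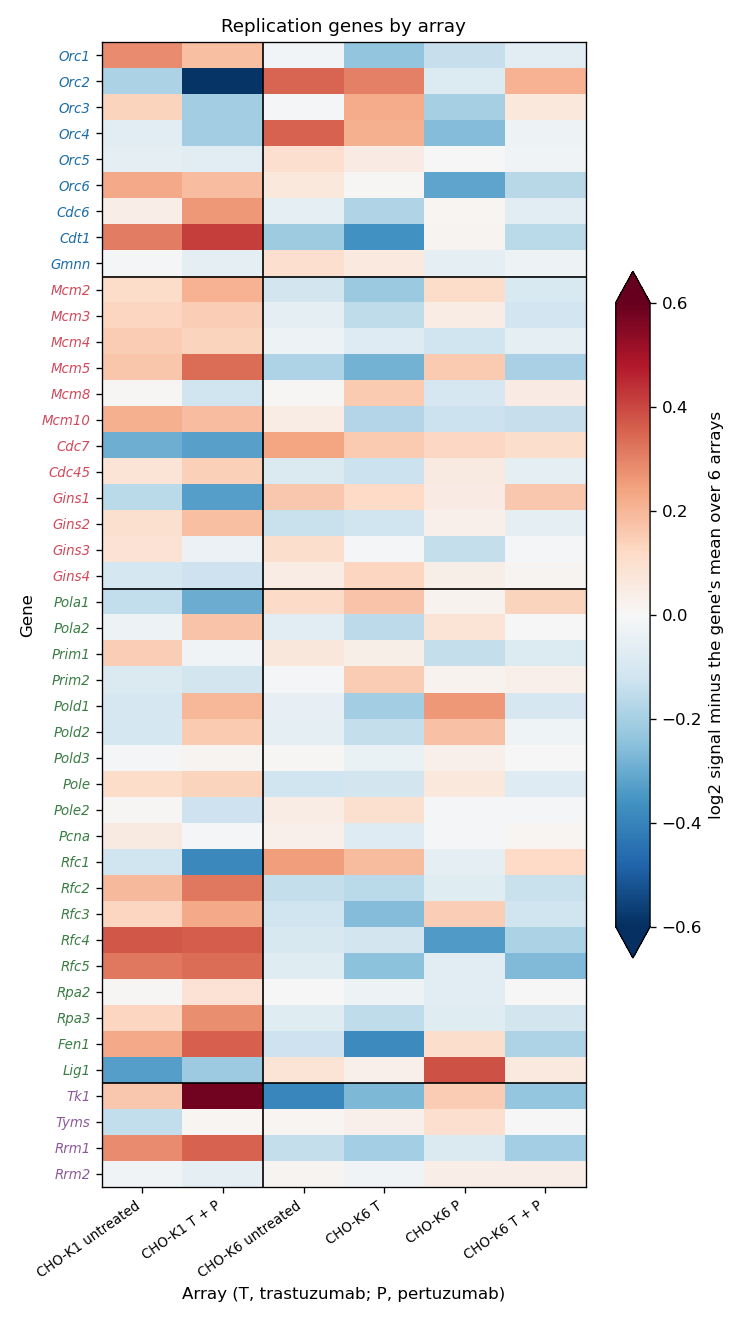
Heat map of the 44 measured genes (rows, grouped by role and coloured by it) on the 6 arrays (columns; T, trastuzumab; P, pertuzumab). Colour is the log2 signal minus the gene's own mean over the 6 arrays, with red above and blue below. The CHO-K1 columns are red for Cdt1, Rfc2, Rfc4, Rfc5, Fen1, Tk1 and Rrm1 and blue for Cdc7, Gins1, Pola1 and Lig1.

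The machinery varied about as much over the arrays as genes at large. The range of a member over the 6 arrays had a median of 0.43 on the log2 scale, beside 0.41 for all 9095 genes, and ran from 0.07 for Pold3, an accessory subunit of polymerase delta, to 0.97 for Tk1, the thymidine kinase of cycling cells. Most members were bright: their mean signals ran from 6.85 (Pole2) to 11.62 (Rrm2), with a median at the 80.5th percentile of the 14899 genes. A member is counted as higher or lower below where a difference reached 0.3219 on the log2 scale, the threshold used throughout, which is a linear signal 25% higher or 20% lower. The threshold is a chosen fold and measures no error. Another cluster that averages 6 or more exists for 873 genes. For each comparison the 95th percentile of the disagreement between both clusters of a gene is given. It covers probe and isoform differences, not differences between cultures.

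The first question is how the HER2 line differs from its parent. In untreated cells 5 members were higher in CHO-K6 (11.4% of the 44, beside 16% of all genes) and 8 were lower (18.2%, beside 15.7%). On the combination arrays 5 were higher (11.4%, beside 19.7%) and 12 lower (27.3%, beside 18.2%). The medians of the members were -0.06 and -0.175 for the untreated and combination arrays, and those of all genes -0.01 and -0.02. Fewer members than genes at large were thus higher in CHO-K6 in both pairs, and on the combination arrays more were lower. The disagreement between clusters reached 0.524 and 0.54 at its 95th percentile. Past it lay 3 members on the untreated arrays (Orc2, Cdc7 and Tk1; 13.7% of all genes did so) and 6 on the combination arrays (Orc2, Cdt1, Rfc4, Rfc5, Tk1 and Rrm1; 16.7% of all genes).

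All arrays together separate the lines more often. For 19 of the 44 members (43.2%) all 4 CHO-K6 arrays lay below both CHO-K1 arrays, beside 26.1% of all genes, and for 9 (20.5%) they lay above, beside 25.3% of all genes. The other 16 overlapped. With each array left out in turn, 19 to 22 members lay below (43.2% to 50%), beside 26.8% to 36.3% of all genes. Above lay 9 to 13 (20.5% to 29.5%), beside 26.2% to 35.2% of all genes. By role, the numbers above, below and overlapping were 2, 4 and 3 for origin and licensing genes, 3, 6 and 3 for helicase genes, 4, 7 and 8 for polymerase, clamp and fork genes, and 0, 2 and 2 for nucleotide genes. Every role but the nucleotide genes thus held members on both sides.

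**Figure D2:**
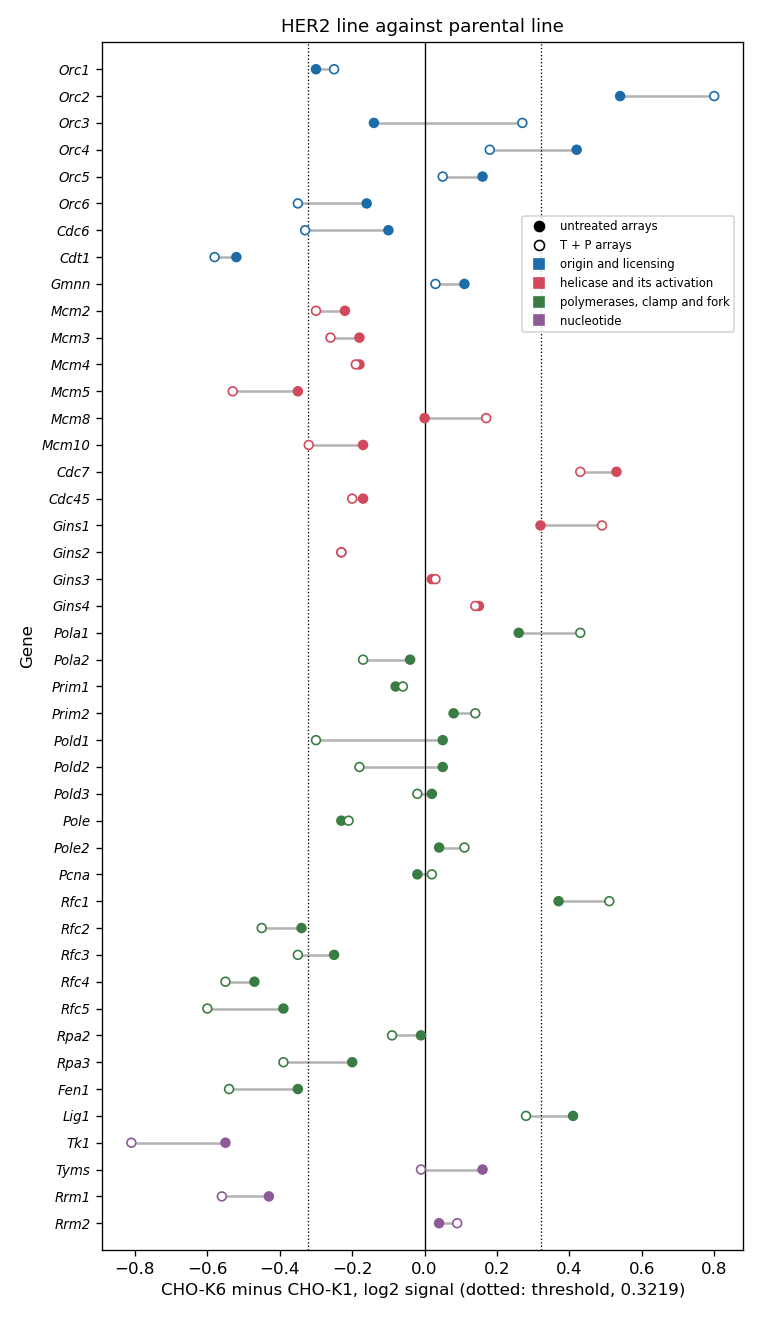
Difference between CHO-K6 and CHO-K1 in log2 signal (x axis) for each of the 44 genes (y axis), with filled circles for the untreated arrays, open circles for the combination (T + P) arrays and colour for the role. Orc2, Cdc7 and Rfc1 lie right of the upper threshold line (dotted) in both pairs, and Cdt1, Mcm5, Rfc2, Rfc4, Rfc5, Fen1, Tk1 and Rrm1 lie left of the lower line in both.

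The 6 subunits of ORC, the complex that marks origins, did not differ alike between the lines. Orc2 had log2 signals of 8.93 and 8.53 in CHO-K1 and 9.47, 9.42, 9.04 and 9.33 in CHO-K6. All CHO-K6 arrays lay above both CHO-K1 arrays, by 0.54 untreated (1.45-fold) and 0.80 on the combination arrays (1.74-fold), the largest differences of any member upwards. Orc4 read 8.31 and 8.17 in CHO-K1 against 8.73, 8.59, 8.12 and 8.35 in CHO-K6, so the lines overlapped although the untreated arrays differed by 0.42. Orc1, an ATPase subunit of the complex, was lower in CHO-K6 on every array, with 9.04 and 8.94 in CHO-K1 and 8.52 to 8.74 in CHO-K6. Its differences were -0.30 and -0.25. Orc6 showed the same order, with differences of -0.16 and -0.35, the second past the threshold. Orc5 was higher on all CHO-K6 arrays by small amounts (0.16 and 0.05), and the 2 line differences of Orc3, -0.14 and 0.27, had opposite signs.

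The factors that load the helicase with ORC were lower in CHO-K6. Cdt1, which brings MCM rings to ORC, had 9.79 and 9.90 in CHO-K1 and 9.27, 9.12, 9.50 and 9.32 in CHO-K6. The lowest CHO-K1 array was 0.29 above the highest CHO-K6 array, and the differences were -0.52 and -0.58. Cdc6, the ATPase that acts beside Cdt1, lay below by -0.10 and -0.33, with the CHO-K6 arrays at 9.29 to 9.48 and the CHO-K1 arrays at 9.51 and 9.73. Gmnn, the gene of the Cdt1 inhibitor geminin, differed by 0.11 and 0.03, with overlapping arrays.

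All 4 measured subunits of the MCM2-7 ring were lower in CHO-K6 in both pairs, with median differences of -0.20 and -0.28. Of all genes, 50.5% were lower untreated and 52.2% on the combination arrays. Mcm5 alone reached the threshold, with 10.51 and 10.68 in CHO-K1 and 10.16, 10.06, 10.50 and 10.15 in CHO-K6. Its pertuzumab array sat 0.01 below the untreated CHO-K1 array, while the other CHO-K6 arrays were clearly lower. Mcm2 overlapped between the lines, since its pertuzumab array equalled untreated CHO-K1 at 11.29. Its second cluster gave line differences of -0.29 and -0.33, beside -0.22 and -0.30 for the first. Mcm3 and Mcm4 lay below CHO-K1 on all arrays by 0.26 or less in each pair. Mcm8, a relative of the ring that acts in DNA repair, differed by 0.00 and 0.17, and its second cluster by 0.51 and 0.26, so the clusters of this gene do not give 1 answer.

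The genes that switch the loaded ring on went both ways. Cdc7, the S-phase kinase that phosphorylates MCM, had 8.58 and 8.55 in CHO-K1 and 9.11, 9.03, 9.00 and 8.98 in CHO-K6. The lines were 0.40 apart at their closest arrays, the widest separation upwards among the members. Gins1 was also higher on every CHO-K6 array, with 10.40 and 10.23 in CHO-K1 and 10.61 to 10.72 in CHO-K6, and its differences were 0.32, just under the threshold, and 0.49. Gins4 was higher by 0.15 and 0.14, Gins2 lower by 0.23 in each pair, and Gins3 differed by 0.02 and 0.03, so the 4 subunits of the GINS complex lay on different sides. Cdc45 (-0.17 and -0.20) and Mcm10 (-0.17 and -0.32), which join the helicase as it is activated, were lower on all CHO-K6 arrays.

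Among the polymerases, differences between the lines were small. Pola1, the catalytic subunit of polymerase alpha, was higher on all CHO-K6 arrays, with 8.90 and 8.75 in CHO-K1 against 9.07 to 9.22 in CHO-K6. It reached the threshold on the combination arrays (0.43, beside 0.26 untreated). Its partners Pola2 (-0.04 and -0.17), Prim1 (-0.08 and -0.06) and Prim2 (0.08 and 0.14) stayed closer to 0. The polymerase delta genes Pold1, Pold2 and Pold3 differed by 0.05, 0.05 and 0.02 in untreated cells and by -0.30, -0.18 and -0.02 on the combination arrays. Pole, the catalytic subunit of polymerase epsilon, was lower in CHO-K6 by 0.23 and 0.21 in the 2 pairs, and Pole2 differed by 0.04 and 0.11.

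The clamp and its loader gave a more regular picture. Pcna itself had 11.35 and 11.29 in CHO-K1 and 11.22 to 11.33 in CHO-K6, with differences of -0.02 and 0.02. The 4 small subunits of RFC were all lower in CHO-K6, with median differences of -0.365 and -0.50, while the large subunit Rfc1 was higher. Of all genes, 50.5% were lower in CHO-K6 untreated and 52.2% on the combination arrays. Rfc4 showed it most plainly, with 10.97 and 10.96 in CHO-K1 and 10.50, 10.49, 10.26 and 10.41 in CHO-K6, a separation of 0.46 at the closest arrays. Rfc5 had 9.31 and 9.33 in CHO-K1 against 8.92, 8.75, 8.93 and 8.73 in CHO-K6, differences of -0.39 and -0.60. Rfc2 was lower by 0.34 and 0.45, again with no overlap, and Rfc3 by 0.25 and 0.35, with its pertuzumab array (8.74) reaching the untreated CHO-K1 level (8.72). Rfc1, which shares no such order, had 10.20 and 9.93 in CHO-K1 and 10.57, 10.51, 10.26 and 10.44 in CHO-K6, so it was 0.37 and 0.51 higher.

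Of the proteins that cover and join DNA at the fork, Rpa3, the smallest subunit of the single-strand binding protein, was lower in CHO-K6 by 0.20 and 0.39, and Rpa2 by 0.01 and 0.09. Fen1, the flap nuclease of the lagging strand, had 10.02 and 10.15 in CHO-K1 and 9.67, 9.41, 9.90 and 9.61 in CHO-K6. All its CHO-K6 arrays were lower, by 0.35 untreated and 0.54 on the combination arrays. Lig1, the ligase that seals the same fragments, lay on the other side, with 8.74 and 8.85 in CHO-K1 and 9.15, 9.10, 9.45 and 9.13 in CHO-K6. Its differences were 0.41 and 0.28.

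In the nucleotide group the salvage enzyme and 1 reductase subunit were lower in CHO-K6. Tk1 had 7.78 and 8.20 in CHO-K1 and 7.23, 7.35, 7.77 and 7.39 in CHO-K6, differences of -0.55 (0.68-fold) and -0.81 (0.57-fold). That is the largest difference of any member on either pair of arrays, although its pertuzumab array lay only 0.01 below untreated CHO-K1. Rrm1, the large subunit of ribonucleotide reductase, had 11.23 and 11.30 in CHO-K1 and 10.80, 10.74, 10.86 and 10.74 in CHO-K6. The lines were 0.37 apart at their closest. The small subunit Rrm2 (11.57 to 11.66 over the 6 arrays) and Tyms, thymidylate synthase (10.92 to 11.17), overlapped between the lines, with differences of 0.04 and 0.09 for Rrm2 and 0.16 and -0.01 for Tyms.

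The second question is how the antibody-treated CHO-K6 arrays differ from the untreated one. With trastuzumab no member reached the threshold in either direction, beside 2.05% of all genes. No member passed the cluster disagreement of 0.34 either, as 1.55% of all genes did. The small differences leaned 1 way: 34 of the 44 members lay below untreated CHO-K6 and 10 above, with a median of -0.05, whereas 41.4% of all genes lay below and their median was 0.02. The trastuzumab array was the lowest of the 4 CHO-K6 arrays for 20 members (45.5%) and for 23.3% of all genes. The furthest below were Fen1 (9.67 untreated and 9.41 with trastuzumab, -0.26), Orc1 and Mcm10 (-0.22 each). The furthest above were Orc3 (0.23), the primase subunit gene Prim2 (0.16) and Mcm8 (0.15). Medians by role were -0.06 for origin and licensing genes, -0.065 for helicase genes, -0.05 for polymerase, clamp and fork genes and -0.01 for nucleotide genes. Set against the average of the other antibody-treated arrays, in place of the untreated one, 25 of the 44 lay below. The share of all genes below that average was not computed, so this count has no background.

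With pertuzumab 2 members were higher by the threshold or more (4.55%, beside 10.3% of all genes) and 3 were lower (6.82%, beside 9.04%), so fewer members than genes at large crossed the line. The median was 0.005 (0.06 over all genes). The cluster disagreement of 0.41 was passed by Orc2, Orc4 and Tk1 and by 9.04% of all genes. The roles parted, with medians of -0.16 for origin and licensing, -0.05 for the helicase, 0.02 for polymerases, clamp and fork, and 0.075 for nucleotide genes.

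**Figure D3:**
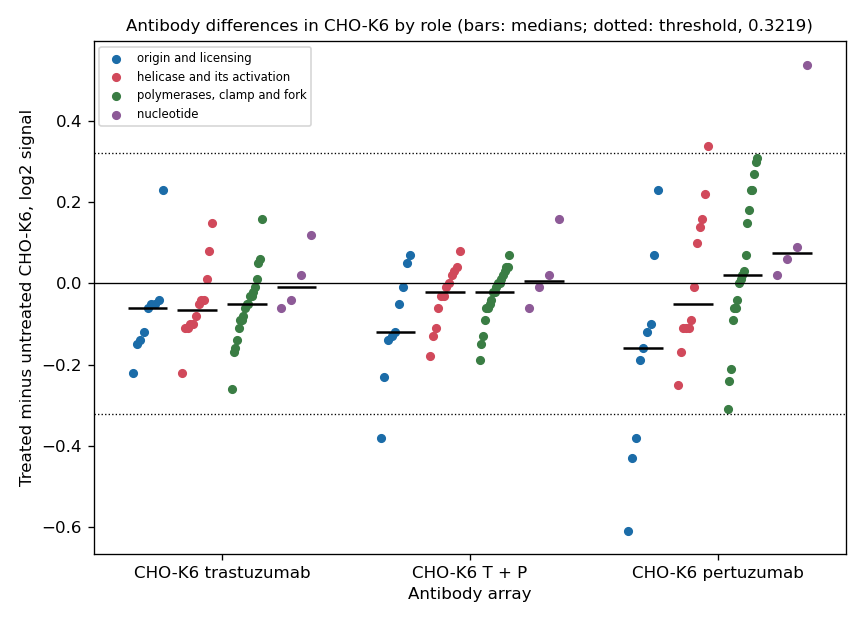
Difference of each antibody-treated CHO-K6 array from untreated CHO-K6 (y axis, log2 signal) for the 44 genes, split by array (x axis; T + P, combination) and role (colour), with bars at medians and dotted lines at the threshold. The points spread most with pertuzumab, from -0.61 for Orc4 to 0.54 for Tk1, and no trastuzumab point reaches a dotted line.

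The lower members with pertuzumab were ORC subunits. All 6 subunits lay below untreated CHO-K6, as 39.5% of all genes did, with a median of -0.285. Orc4 had 8.73 untreated and 8.12 with pertuzumab (-0.61, 0.66-fold), beside 8.59 with trastuzumab and 8.35 with the combination. Orc2 had 9.47 and 9.04 (-0.43), and Orc6 had 8.88 and 8.50 (-0.38). The pertuzumab array was the lowest CHO-K6 array for each of these. Orc3 (-0.19), Orc1 (-0.12) and Orc5 (-0.10) lay below by less. The loading factors did not share this side, since Cdt1 was 0.23 above and Cdc6 0.07 above untreated CHO-K6.

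The higher members with pertuzumab were Tk1 and Mcm5, at 0.54 (1.45-fold) and 0.34 (1.27-fold), followed by Pold1, the catalytic subunit of polymerase delta, at 0.31. Pold1 had 9.53 untreated, 9.37 with trastuzumab, 9.84 with pertuzumab and 9.48 with the combination. Lig1 (0.30), Rfc3 (0.27), Fen1 and Pold2 (0.23 each) and Mcm2 (0.22) lay on the same side but under the threshold. All 3 polymerase delta genes lay above untreated CHO-K6, as 59.1% of all genes did, with a median of 0.23. Their agreement rests in part on the chosen cluster of Pold2, whose other clusters gave 0.15 and -0.04. On the other side of 0 lay Rfc1 (-0.31), Gins3 (-0.25), Rfc4 (-0.24) and Prim1 (-0.21). All 4 nucleotide genes were at 0.02 or above, where 59.1% of all genes lay above 0.

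With the combination CHO-K6 lay close to its untreated values. Only Orc4 reached the threshold, being lower by 0.38, which makes 0 members higher and 1 lower (2.27%), beside 0.858% of all genes higher and 0.693% lower. It also was the only member past the cluster disagreement of 0.30, as 2.06% of all genes were. Next below were Orc6 (-0.23) and Rfc5 (-0.19), and the furthest above were Tk1 (0.16), Gins2 (0.08), and Orc3 and Pola2 (0.07 each). The median was -0.02 (0.01 over all genes). Below 0 lay 27 members (61.4%, beside 43.6% of all genes) and above it 14 (31.8%, beside 52.8%). The combination array was the lowest CHO-K6 array for 7 members (15.9%, beside 16.7% of all genes) and the highest for 3 (6.82%, beside 12%). The pertuzumab array was highest for 22 (50%, beside 49.6%), close to the background, and the untreated array for 17 (38.6%, beside 19%).

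In CHO-K1, which does not carry the human HER2 gene, the combination array still differed from the untreated one. Tk1 was higher, at 8.20 against 7.78 (0.42, 1.34-fold). Orc2, at 8.53 against 8.93, and Orc3, at 8.28 against 8.62, were lower by 0.40 and 0.34. That makes 1 member higher (2.27%, beside 3.24% of all genes) and 2 lower (4.55%, beside 5.72%), close to the background. No member passed the cluster disagreement of 0.42, which 3.17% of all genes did. Next in order came Pold1 (0.30) and Pold2 (0.26) above and Rfc1 (-0.27) below. All 6 ORC subunits were below untreated CHO-K1, as 44.3% of all genes were, with a median of -0.12 and a range from -0.40 to -0.01. All 3 polymerase delta genes were above, as 53.4% of all genes were, with a median of 0.26. This rests in part on the chosen cluster of Pold2, whose other clusters gave 0.10 and -0.03. Medians by role were -0.05, -0.02, 0.03 and 0.115 for origin, helicase, polymerase and nucleotide genes.

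This order of genes resembled that of pertuzumab in CHO-K6, and the 2 differences share no array. Over the 44 members the differences of pertuzumab in CHO-K6 and of the combination in CHO-K1 had a Pearson's r of 0.807 and a Spearman's rho of 0.848, and 40 members had the same sign (90.9%). Over all 9095 genes r was 0.664, rho was 0.658 and 75.2% had the same sign. The combination difference in CHO-K6 gave lower values against that of CHO-K1, with r of 0.412 over the members and 0.274 over all genes, and 25 members of the same sign. The trastuzumab difference gave an r of -0.227 over the members and -0.005 over all genes. These are descriptions across genes, which are not independent replicates, and every point shares the same 4 arrays.

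**Figure D4:**
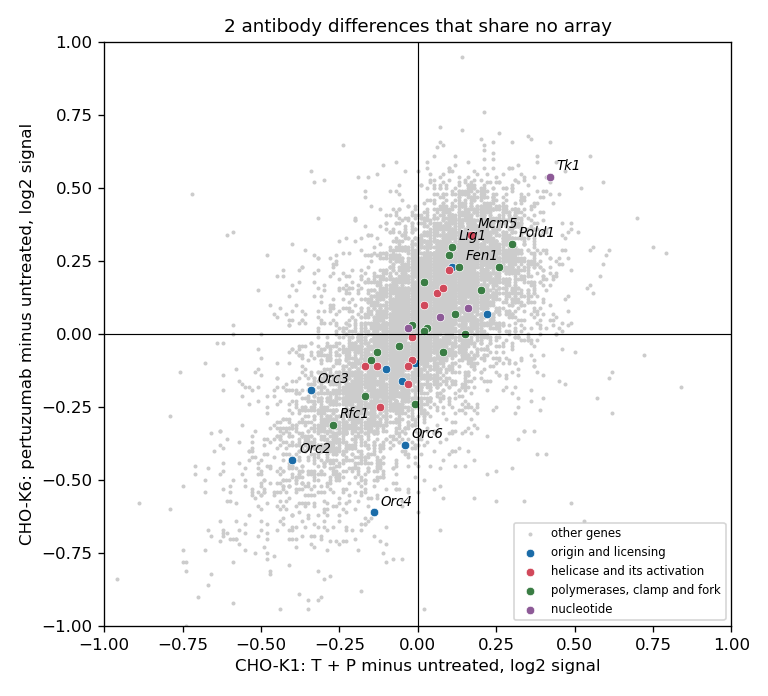
Log2 difference of the combination array from untreated CHO-K1 (x axis) against that of the pertuzumab array from untreated CHO-K6 (y axis), for 9095 genes (grey) and the 44 members (coloured by role). Tk1 lies at the upper right, at 0.42 and 0.54, and Orc2 at the lower left, at -0.40 and -0.43. The axes end at 1 and leave 9 genes outside.

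Set against each other directly, the single antibodies put 11 members past the threshold, beside 5 and 0 for pertuzumab and trastuzumab against the untreated array. Between the pertuzumab and trastuzumab arrays 8 members were higher with pertuzumab (18.2%, beside 7.42% of all genes) and 3 were lower (6.82%, beside 9.68%). The median was 0.07 (0.05 over all genes). Past the cluster disagreement of 0.43 lay Orc4, Mcm5, Pold1 and Fen1, as did 6.81% of all genes. Fen1 showed the largest difference, 9.41 with trastuzumab and 9.90 with pertuzumab (0.49, 1.40-fold). It was followed by Pold1 (0.47), Mcm5 (0.44), Tk1 (0.42), Rfc3 (0.41), Cdt1 (0.38), Lig1 (0.35) and Mcm2 (0.33). Pold2, at 0.32, was just under the threshold, and its other clusters gave 0.01 and -0.05. The 3 lower members were again ORC genes: Orc4 (-0.47), Orc3 (-0.42) and Orc2 (-0.38). Past the threshold, the licensing factor Cdt1 and 2 of the 4 measured ring subunits were thus on the opposite side from ORC. Mcm4 (-0.04) lay on the other side of 0 from Mcm2, Mcm3 and Mcm5, and Rfc4 (-0.23) and Rfc1 (-0.25) from Rfc2, Rfc3 and Rfc5. By role the medians were -0.12 for origin and licensing, 0.01 for the helicase, 0.08 for polymerases, clamp and fork, and 0.095 for nucleotide genes.

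Many members lay on opposite sides in the line and antibody differences, as many other genes did. The line difference on the combination arrays and the pertuzumab minus trastuzumab difference share no array, and over the 44 members they had an r of -0.619 and a rho of -0.625, with opposite signs for 36 and the same sign for 8 (18.2%). Over all 9095 genes r was -0.531 and 26.6% had the same sign. Tk1, Fen1, Mcm5 and Cdt1 were low in CHO-K6 and high with pertuzumab, and Orc2 was high in CHO-K6 and low with pertuzumab. Cdc7 and Rrm1, which separate the lines on every array, differed between the antibodies by -0.03 and 0.12. Lig1 was high on both, at 0.28 and 0.35, and Rfc4 and Orc6 were low on both. Trastuzumab's difference had an r of 0.332 with the same line difference over the members and of 0.014 over all genes. The untreated line difference shares no array with the pertuzumab minus trastuzumab difference either, and the values for this pair were weaker. Over the members r was -0.472, with opposite signs for 31 and the same sign for 12. Over all genes r was -0.363 and 33.5% had the same sign.

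**Figure D5:**
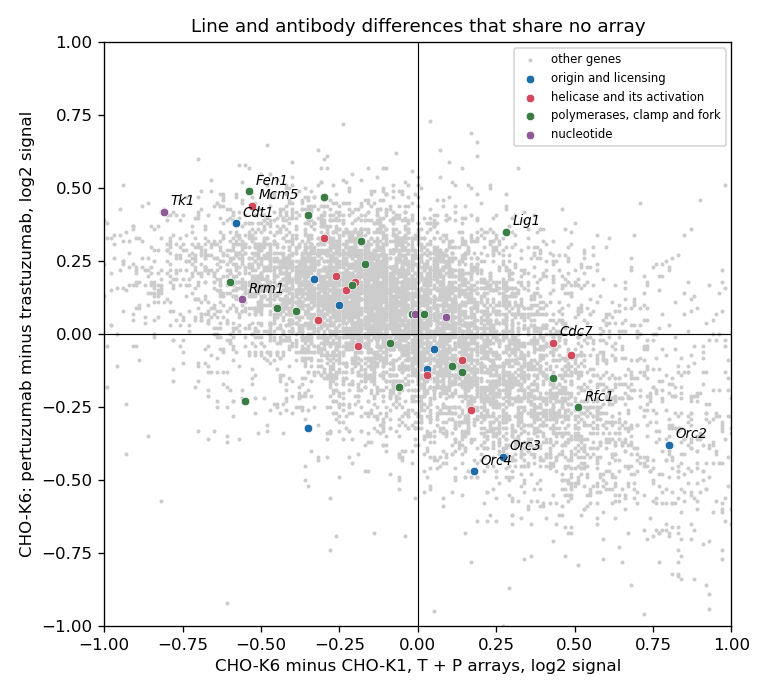
Log2 difference between the lines on the combination arrays (x axis, CHO-K6 minus CHO-K1) against the difference between the pertuzumab and trastuzumab arrays of CHO-K6 (y axis), for 9095 genes (grey) and the 44 members (coloured by role). Tk1, Fen1, Mcm5 and Cdt1 lie at the upper left and Orc2 at the lower right. Lig1, at 0.28 and 0.35, lies at the upper right. The axes end at 1 and leave 296 genes outside.

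Other genes of origin firing and the fork were measured for 26 of 29 listed. Between the untreated lines 2 were higher by the threshold or more (7.69%, beside 16% of all genes) and 6 lower (23.1%, beside 15.7%). Between the combination arrays 4 were higher (15.4%, beside 19.7%) and 7 lower (26.9%, beside 18.2%). Topbp1, which helps to activate the helicase, had 9.22 and 9.15 in CHO-K1 and 10.23, 10.11, 10.09 and 10.13 in CHO-K6, differences of 1.01 and 0.98. These exceed the difference of every member. Rnaseh2a, the catalytic subunit of the enzyme that removes RNA from DNA, had 8.97 and 9.18 in CHO-K1 and 8.27, 8.27, 8.62 and 8.25 in CHO-K6, differences of -0.70 and -0.93. Next were the maintenance methyltransferase Dnmt1 (0.36 untreated), Mcm9 (0.41 on the combination arrays) and Uhrf1, the partner of Dnmt1 (-0.42 and -0.58). With pertuzumab 3 were higher (11.5%, beside 10.3%) and 2 lower (7.69%, beside 9.04%), the furthest being Rnaseh2a and the clamp loader subunit Chtf18 (0.35 each), and by Atad5, which unloads PCNA (-0.41), and topoisomerase Top1 (-0.39). With trastuzumab and the combination in CHO-K6 none reached it. In CHO-K1 Top1 did, at -0.35. Between pertuzumab and trastuzumab the furthest were Chtf18 (0.49) and the polymerase delta subunit Pold4 (0.36) above and Atad5 (-0.37) and Tipin, which protects stalled forks (-0.33), below.

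Of 20 other genes of nucleotide supply 17 were measured, 16 of them with a mean signal of 6 or more. In untreated cells 15 lay below CHO-K1 (88.2%, beside 50.5% of all genes) and 1 above, with a median of -0.16. By the threshold or more 3 were lower (17.6%, beside 15.7% of all genes) and none higher (beside 16%). Impdh2, the rate-limiting enzyme of guanine nucleotide synthesis, had 9.91 and 10.05 in CHO-K1 and 9.36 to 9.57 in CHO-K6, differences of -0.54 and -0.65. Umps, which makes uridine monophosphate, had 10.85 and 10.90 in CHO-K1 and 10.31 to 10.35 in CHO-K6, differences of -0.52 and -0.59. Both lay lower on every CHO-K6 array, as Rrm1 and Tk1 did. On the combination arrays 6 were lower (35.3%, beside 18.2%), among them the dim Dctd (mean 2.83). The largest above 0 were Tk2 (0.05) untreated and Samhd1 (0.14) on the combination arrays. With pertuzumab 13 lay above untreated CHO-K6 (76.5%, beside 59.1% of all genes) and 4 below. Cad, the enzyme that starts pyrimidine synthesis, was at 0.33 the only gene of this list past the threshold. That is 5.88% higher, beside 10.3% of all genes, and none lower, beside 9.04%. Between pertuzumab and trastuzumab 13 of the 17 lay above 0 (76.5%, beside 56.5% of all genes), with a median of 0.12. Cad (0.42) and the dim Dctd (0.35) passed the threshold (11.8%, beside 7.42%). Rrm2b, a reductase subunit induced by p53, was the only one of the list lower by as much (5.88%, beside 9.68%). It was 7.64 with trastuzumab and 7.05 with pertuzumab (-0.59), the opposite side from Rrm1 (0.12) and Rrm2 (0.06).

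Of 16 genes for E2F factors, their partners and the pocket proteins that restrain them, 14 were measured. Between the untreated lines 5 were higher in CHO-K6 (35.7%, beside 16% of all genes) and 3 lower (21.4%, beside 15.7%). Between the combination arrays 6 were higher (42.9%, beside 19.7%) and 2 lower (14.3%, beside 18.2%). Tfdp2, a dimer partner of E2F, had 8.56 and 8.41 in CHO-K1 and 9.62, 9.67, 9.32 and 9.57 in CHO-K6, differences of 1.06 and 1.16. The retinoblastoma gene Rb1 was higher by 0.47 and 0.50, and the repressor E2f6 by 0.37 and 0.76. The lower genes were led by Mybl2, itself a proliferation gene, at -0.49 and -0.53, with E2f8 at -0.36 and -0.35. With pertuzumab E2f1 was the only gene higher, at 8.70 untreated and 9.04 (0.34), which is 7.14% beside 10.3% of all genes. Lower past the threshold were Lin54 (-0.41) and Lin9 (-0.37), subunits of the complex that represses cell cycle genes in quiescence (14.3%, beside 9.04%). Below 0 lay 11 of 14 (78.6%, beside 39.5% of all genes). Between pertuzumab and trastuzumab E2f1 was higher (0.45), which is 7.14% beside 7.42% of all genes. Tfdp2 and Lin54 were lower (-0.35 each), 14.3% beside 9.68%, and the median over the 14 genes was -0.15. In CHO-K1 the combination put 11 of 14 below 0 as well (78.6%, beside 44.3% of all genes), the furthest being E2f6 (-0.31) and Lin54 (-0.29). None reached the threshold, as 3.24% of all genes did upwards and 5.72% downwards.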

How the data were processed

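Biotin-labelled cDNA from total RNA of 6 cultures was hybridised to Affymetrix CHO Gene ST arrays. The authors made the log2 signals per transcript cluster with the Transcriptome Analysis Console 3.0, and the submitters' processing notes also name the Expression Console. The normalization method and the array's genome build are not given in the sources used here, so no positions are printed. The deposited log2 table holds 29700 transcript clusters and was used without rescaling. The series matrix holds 1234 more, with values that differ by at most 0.005.

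Of the clusters, 16481 carry 1 symbol, 793 several and 12426 none. All 44 members matched the gene of that symbol in RefSeq by gene ID. With 1 array per group no test was run, and no model that pools the arrays of both lines was fitted. Differences, counts past a fold threshold (log2 of 0.3219) and medians were computed for 7 comparisons beside the 9095 genes whose log2 signal averaged 6 or more. Every member is accounted for. Per comparison the members past it are named, or the 3 furthest in a direction with fewer. Genes of the pathway lists are named past 1.5-fold or among the 2 furthest. The members and lists were chosen with earlier results of these data known, and the disagreement between clusters and leaving out each array from the separation of the lines were added after the values were seen. Alternatives were quantile normalization, the series matrix, the mean of a gene's clusters, no signal filter, other folds, the mean over members and another reference. The calculations were tested on simulated data. Python 3.11.15, NumPy 2.4.6, pandas 2.3.3, SciPy 1.17.1 and Matplotlib 3.10.9 were used.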

Additional observations from a re-analysis of the deposited data

Results flagged for a closer look

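The combination differences had opposite signs in the lines for 16 members. For 2 of these the difference between the lines also reached the threshold. Orc3 was 0.07 above untreated in CHO-K6 and 0.34 below untreated in CHO-K1 (-0.34), a difference of 0.41 between the lines. Pold1 was at -0.05 in CHO-K6 and 0.30 in CHO-K1, a difference of -0.35. With 1 array per condition, neither difference between the lines was tested.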

How the results depend on the processing

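The number of members past the threshold depends on the fold. At 1.5-fold it was 0 between the untreated lines, 3 between the combination arrays (Orc2, Rfc5 and Tk1), 0 with trastuzumab, 1 with pertuzumab (Orc4), 0 with the combination in CHO-K6, 0 in CHO-K1 and 0 between pertuzumab and trastuzumab. Of all 9095 genes, 521 were higher and 450 lower at 1.5-fold between the untreated lines, and 782 and 526 between the combination arrays. These numbers were 4 and 3 with trastuzumab, 29 and 151 with pertuzumab, and 2 and 2 with the combination in CHO-K6. In CHO-K1 they were 12 and 62, and between pertuzumab and trastuzumab 14 and 158. At 2-fold 0 members passed in each of the 7 comparisons. Between the untreated lines 127 of all genes were higher and 79 lower, and between the combination arrays 211 and 92. The mean over the members on the combination arrays of the lines was -0.1059, beside a median of -0.175. Each antibody array was also set against the mean of its 2 counterparts in place of untreated CHO-K6. Then 2 members passed the threshold with trastuzumab (0 against the untreated array), 9 with pertuzumab (5) and 0 with the combination (1). The share of all genes against that reference was not computed. Under quantile normalization, the series matrix, the mean of a gene's clusters and no signal filter, all 15 medians and counts stayed close. They kept within 1.5 times or 0.05 of their values, and none changed direction. Most of these alternatives could move few or no member values. All 44 members pass the signal filter, the series matrix differs by at most 0.005, and only 3 members have several clusters. The 34 members below 0 with trastuzumab were 36 under quantile normalization and 33 with the mean of clusters, but 25 when set against those counterparts. Among genes averaging 8 or more on the log2 scale, a background chosen after seeing the data, 0.9305% passed the threshold with trastuzumab and 0.4573% with the combination in CHO-K6, beside 2.045% and 1.55% of those at 6 or more. With each array left out in turn, an alternative chosen after seeing the data, 28 to 35 members separated the lines, beside 28 with all arrays. Leaving an array out can only raise this number, and the shares of all genes on each side rose as well. A difference between 2 single arrays leaves none to drop. The lines are paired by treatment only through the untreated and combination differences, which are given side by side, and no paired test was run. Culture, harvest and hybridisation differences between single arrays cannot be told apart from line and antibody.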
